A study of Mus musculus with 2 samples.

Results

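Of the 2017 H3K27me3 regions that were called in mouse rib chondrocytes, 332 (16.5%) were at least 2000 bp long, and these broad regions are described here against the 1685 shorter ones. A region's length was taken as its right end minus its left end, so the broad regions were chosen by their measured length. The longest that named regulators of development were those of Hoxc11, Prdm12, Cdx2, Hoxa13 and Prox1, with 5325 to 6311 bp. Those of Hoxc11 and Hoxa13 lay 4419 and 4242 bp from the gene. The median of the shorter regions was 922 bp. Broad regions named a transcription factor gene of the lists used here in 30.1% of cases (100 of 332), and shorter regions in 17.4% (294 of 1685). Per Mb of region with both flanks of 5000 bp, there were 25.4 and 16.5 pairs of such a gene and a region. By list, the shares parted for Hox genes (5.72% and 1.78%) and the other homeobox list (16.3% and 9.38%). For the other transcription factor lists, the intervals of broad and shorter regions overlapped. The lists were chosen with earlier results of these data known. Broad regions included the 5′ end of a gene in 11.7% of cases (39), and shorter regions in 3.15% (53). Per Mb of region, which allows for the length, the 5′ ends inside were 40.1 (28.5 to 54.8) and 32.1 (24.1 to 41.9), with overlapping intervals. Near Cwc22 on chromosome 2, 10 broad regions stood apart from the rest by their high input.

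The data came from 1 H3K27me3 ChIP library and 1 input library, with no replicates, so no difference below has a replicate check. Both libraries were made from wild-type CD1 mice at postnatal day 2.5, whose rib chondrocytes were pooled from 11 animals and kept in culture overnight with 5% serum before fixation. The input was 2% of the same chromatin without the pull-down, and no gene was deleted or induced in these cells. Since the animals were pooled, differences between mice cannot be seen, and more cells with the mark cannot be told apart from more of the mark per cell. Shares are given with their 95% Clopper-Pearson intervals, which cover counting error only and treat each region as independent, although neighbouring regions lie at the same genes.

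H3K27me3 is histone H3 trimethylated at lysine 27. The mark is placed by Polycomb repressive complex PRC2, whose subunits include the methyltransferases EZH1 and EZH2 and the protein EED, which binds the mark and stimulates further methylation next to it. In this way the mark can spread from a site of entry into a wide domain. Wide domains are known from the Hox clusters and other genes of developmental regulators, which are kept silent in cells that do not use them, and CpG-rich promoters are known as sites where PRC2 is recruited in mammals.

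As examples, 4 promoters of genes whose 5′ end lay in a broad region are printed. They belong to the longest broad regions that held the 5′ end of a protein-coding gene with 1 promoter window. Each window runs from 250 bases before to 50 bases after the start of the gene, 5′ to 3′ on the gene's strand, from RefSeq (build GRCm38.p6), with each CG in capitals. The regions themselves are on mm9, so the window and the region were matched by the gene's symbol and not by position.
Prdm12, chr2:31639787-31640086, + strand: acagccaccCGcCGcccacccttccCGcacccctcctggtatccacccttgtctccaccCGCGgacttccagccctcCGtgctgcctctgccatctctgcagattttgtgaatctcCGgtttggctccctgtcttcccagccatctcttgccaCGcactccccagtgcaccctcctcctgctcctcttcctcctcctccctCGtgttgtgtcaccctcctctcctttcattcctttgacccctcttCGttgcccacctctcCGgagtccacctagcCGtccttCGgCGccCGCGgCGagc
Cdx2, chr5:147307200-147307499, - strand: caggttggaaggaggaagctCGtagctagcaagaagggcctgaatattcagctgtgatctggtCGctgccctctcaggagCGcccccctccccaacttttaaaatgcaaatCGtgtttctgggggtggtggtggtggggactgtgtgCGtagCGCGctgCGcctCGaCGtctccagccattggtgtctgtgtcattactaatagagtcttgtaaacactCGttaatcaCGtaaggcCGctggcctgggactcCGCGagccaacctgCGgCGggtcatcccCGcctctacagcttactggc
Tbx4, chr11:85896515-85896814, + strand: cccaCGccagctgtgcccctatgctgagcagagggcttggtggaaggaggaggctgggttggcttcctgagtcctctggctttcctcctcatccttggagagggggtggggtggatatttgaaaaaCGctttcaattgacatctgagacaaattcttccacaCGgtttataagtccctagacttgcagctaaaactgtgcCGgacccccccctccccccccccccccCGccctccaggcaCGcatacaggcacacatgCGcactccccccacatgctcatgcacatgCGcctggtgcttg
Gjb6, chr14:57133562-57133861, - strand: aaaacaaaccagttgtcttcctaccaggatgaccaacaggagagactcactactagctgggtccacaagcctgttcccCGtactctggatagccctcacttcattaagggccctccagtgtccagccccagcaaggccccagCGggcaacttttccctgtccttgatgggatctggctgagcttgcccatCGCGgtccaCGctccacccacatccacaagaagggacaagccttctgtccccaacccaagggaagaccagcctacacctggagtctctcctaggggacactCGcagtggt
The Prdm12 window had 17 CG and the Cdx2 window 18, while that of Tbx4 had 8 and that of Gjb6 had 6. The letters CG, which read the same on both strands, were found at least once in 94.6% of all RefSeq windows of this length. The windows of these 4 genes thus ran from many to few CG, and whether each window lies inside its region was not checked. A comparison of broad and shorter regions by CG content was void, since only 29 of the 38 genes whose 5′ end lay in a broad region (76.3%) and 36 of 53 for the shorter regions (67.9%) had a window, below the 80% required.

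The mature microRNAs of genes with a broad region are shown next, because the same mature sequence or seed came from genes at several marked loci. The sequences are from RefSeq, with the seed (bases 2 to 8) in capitals.
mmu-miR-9-5p: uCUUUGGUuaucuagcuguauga
mmu-miR-196a-5p: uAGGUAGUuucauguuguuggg
mmu-miR-196b-5p: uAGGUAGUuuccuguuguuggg
mmu-miR-10b-5p: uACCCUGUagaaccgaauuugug
miR-196a and miR-196b share the seed AGGUAGU, and they come from Mir196a-1, Mir196a-2 and Mir196b, which lie in the Hoxb, Hoxc and Hoxa clusters. miR-9, which is known from the nervous system, is made from several genes, of which Mir9-1 and Mir9-3 had a broad region. In all, 7 of the 15 microRNA genes that any region named had a broad region (46.7%, 21.3 to 73.4, an interval that includes the 25.7% of all named genes), among them also Mir10b and Mir124a-3. The region at Mir9-1 was 4914 bp long, with 273 ChIP and 23 input tags, which gave a ratio of 11.9 (7.75 to 19.0). At Mir9-3, a region of 2442 bp held 130 and 11 tags, and another of 2381 bp held 122 and 19. The region that held Mir196a-2 was 3415 bp long, with 197 and 10 tags, a ratio of 19.7 (10.5 to 41.7). That at Mir196a-1 was 2185 bp, with 122 and 12 tags, and both covered the 5′ end of the microRNA gene. The regions at Mir196b (4180 bp, 237 and 31 tags), Mir10b (2077 bp, 116 and 10) and Mir124a-3 (2171 bp, 111 and 11) lay beside the gene. Those at Mir9-1 (2850 bp away) and Mir9-3 (1347 and 4580 bp away) also lay beside the gene and did not overlap it. The intervals of the ratios at Mir9-1 and Mir196a-2 overlapped, so these ratios were not told apart by counting error.

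The broad regions had a median length of 2555 bp (2000 to 9105 bp). There were 229 of up to 3000 bp, 103 above 3000 bp and 41 with more than 4000 bp. The plot of lengths shows no gap at the limit.

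**Figure D1:**
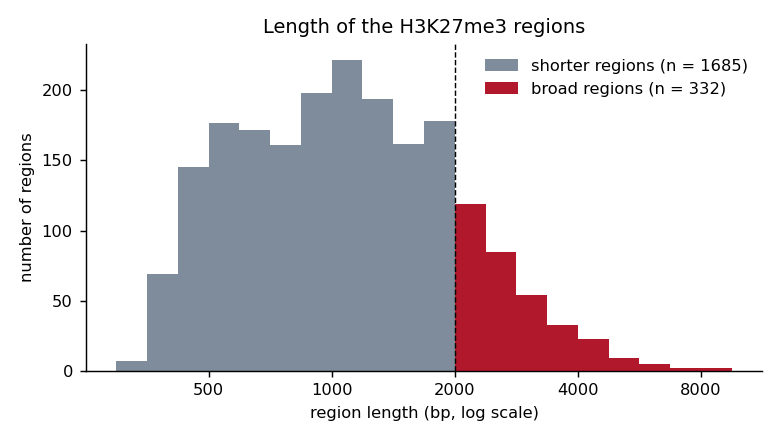
Number of H3K27me3 regions by length in bp (log scale), in bins of equal width on that scale. Red bars are the 332 broad regions and grey bars the 1685 shorter ones, the dashed line marks 2000 bp, and above it the counts fall towards the longest region of 9105 bp.

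Just inside it were a region at Mapk11 and Mapk12 (2002 bp, 102 ChIP and 6 input tags), 1 at Adrb1 (2000 bp, 104 and 10) and 1 at Dbx1 (2000 bp, 96 and 26). Just outside it were a region at Alox15 (1997 bp, 95 and 19) and 2 without a gene within 5000 bp, on chromosome 13 (1993 bp, 89 and 12) and chromosome 2 (1992 bp, 128 and 3).

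With 16.5% of the regions, the broad ones covered 972546 of 2654599 bp (36.6%), and held 52209 of the 143822 ChIP tags (36.3%) and 7774 of the 19260 input tags (40.4%). These and the following tag values are a description, since a longer region collects more tags. A broad region held a median of 132 ChIP tags (90 to 723) and 18 input tags (4 to 276), and a shorter region 50 (20 to 161) and 6 (0 to 85). Per kb the order of the ChIP tags was turned, with a median of 50.9 ChIP tags in broad and 55.2 in shorter regions, and the input was close, with 6.17 and 6.24. The deposited tag enrichment, the ratio of ChIP to input tags with the input kept from falling below a floor, had a median of 5.44 in broad (1.80 to 7.30) and 5.78 in shorter regions (1.86 to 9.64). This floor, 9.21 input tags per kb, applied in 1552 of the 2017 regions. In those the enrichment follows the ChIP tags per kb alone and is not a separate measure. The broad regions were therefore longer, and not denser, in ChIP tags. The height of the profile, the highest point of the smoothed ChIP signal, had a median of 9.07 in broad and 8.62 in shorter regions, and it was at least 10 in 80 broad (24.1%) and 184 shorter regions (10.9%). The highest point lay in the central 50% of the region's length in 199 broad (59.9%) and 1322 shorter regions (78.5%). As a share of the length, and not in bp, it was thus less often central in the broad ones. Of the 100 regions ranked highest by the caller, 92 were broad, and the median −log10 q-value was 107.5 against 42.2. Within the 332 broad regions, Spearman's rho of length with ChIP tags per kb was 0.139, and with input tags per kb 0.224. Over all 2017 regions these values were -0.514 and 0.0526, so the sign for ChIP tags was the opposite of that among the broad regions. These are correlations across regions of 1 library that share its depth, and length is part of both measures.

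Some broad regions had few input tags and a high ratio of ChIP to input tags. The highest was 27.4 (13.1 to 69.1) for a region of 3903 bp on chromosome 13 without a gene within 5000 bp, with 192 ChIP and 7 input tags. It was followed by a region at Gata6 with 25.8 (9.76 to 96.3; 103 and 4 tags), 1 at Dtx1, a regulator of Notch signalling, with 25.2 (9.56 to 94.5) and 1 at Bai1, an adhesion receptor of the brain, with 23.6 (9.83 to 74.0). The rest of the 10 highest were regions at Gsx2 (20.1), at Mir196a-2 between Hoxc9 and Hoxc10 (19.7), at Pax7 (19.2) and at Pou3f1 (18.8), with 1 region on chromosome 2 (21.0) and 1 on chromosome 8 (20) that named no gene. All these intervals overlap, so the order within the 10 is not told apart by counting error.

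The opposite end was made up of regions with high input. Input was at least 18.4 tags per kb, 2 times the lowest input density that enters the deposited tag enrichment (the floor, 9.21), in 15 broad regions (4.52%, 2.55 to 7.34) and 17 shorter ones (1.01%, 0.589 to 1.61), against 1.59% of all regions. Of these 15, 10 lay on chromosome 2 between 77785512 and 77864873 (mm9), where only the first was within 5000 bp of a gene, Cwc22, which codes for a splicing factor. The longest of them, 7500 bp, held 723 ChIP and 276 input tags, the most of both among the broad regions, and its ratio was 2.62 (2.28 to 3.02). The lowest ratio of all, 1.80 (1.45 to 2.25), was that of a region of 3332 bp with 240 and 133 tags in the same stretch. The other 5 were a region near Rn4.5s, a small RNA gene, with 424 and 142 tags (2.99, 2.46 to 3.64), 2 regions that Raet1a, Raet1b and Raet1c share (3.18, 2.49 to 4.10, and 3.71, 2.89 to 4.81), 1 at H2-T3 and H2-Tw3 (3.71, 2.74 to 5.09) and 1 on chromosome 5 without a gene (3.36, 2.67 to 4.26). Raet1 genes code for ligands of an activating receptor of natural killer cells, and H2-T3 and H2-Tw3 belong to the major histocompatibility complex. Both are families of near copies, so tags at them may be split or shared among members, and the values at single genes are uncertain.

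**Figure D2:**
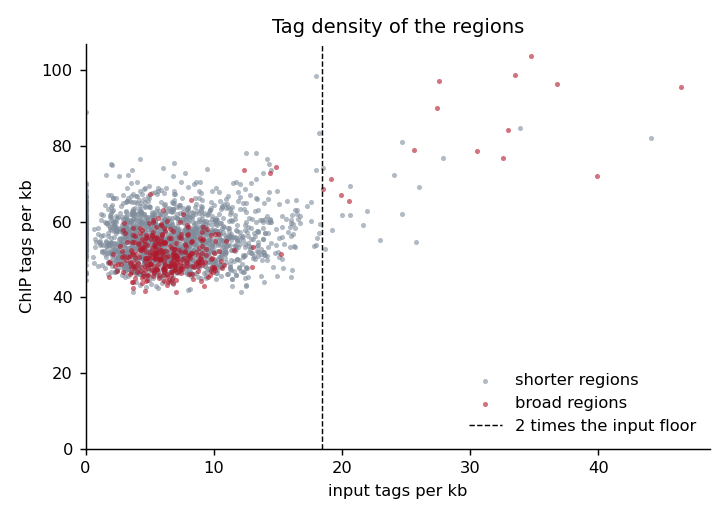
ChIP tags per kb against input tags per kb for each of the 332 broad regions (red) and 1685 shorter regions (grey). The dashed line is 18.4 input tags per kb, 2 times the floor; the 15 broad regions to its right have the high input described in the text, and the other broad regions lie within the cloud of the shorter ones.

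Over all broad regions together the ratio of ChIP to input tags was 6.72 (6.56 to 6.88), and over the shorter ones 7.98 (7.82 to 8.13). Without the loci of Cwc22, Rn4.5s, Raet1a and chromosome 5 between 26332249 and 26426717 (mm9), which hold 15 broad regions (another Raet1a region in place of H2-T3) and 10 shorter ones, the pooled ratios were 7.98 and 8.10. These loci were picked for their high input, so leaving them out had to raise the pooled ratio. The medians per region hardly moved, with a tag enrichment of 5.47 in broad and 5.79 in shorter regions and 50.5 and 55.2 ChIP tags per kb.

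By length, the first of the 10 longest regions was on chromosome 3 from 96137268 to 96146373 (mm9), with 9105 bp, 461 ChIP tags and 47 input tags, and without a gene within 5000 bp. A region of 8278 bp at H2-Q1 and LOC547349 (544 and 68 tags), histocompatibility genes on chromosome 17, and 1 of 7799 bp at Raet1a (580 and 116) came next. The others, beside 2 of the Cwc22 stretch (7500 and 6274 bp), were a region of 6534 bp at Arid3c and Dctn3 (380 and 43 tags), 1 of 6311 bp at Hoxc11 (347 and 37), 1 of 6095 bp on chromosome 5 without a gene (280 and 29), 1 of 5914 bp that overlapped Espn and Tnfrsf25 and lay near Plekhg5 (279 and 41) and 1 of 5543 bp at Prdm12 (284 and 39). Of these 10, 2 named transcription factor genes of the lists used below, that of Hoxc11 from 4419 bp away. Another 4 named no gene, among them both of the Cwc22 stretch. The 10 regions with the most ChIP tags were 5 of the Cwc22 stretch (368 to 723 tags), the regions at Raet1a (580), H2-Q1 (544), Rn4.5s (424) and Arid3c (380), and the longest region on chromosome 3 (461).

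A broad region overlapped a gene in 154 cases (46.4%, 40.9 to 51.9), and a shorter region in 687 (40.8%, 38.4 to 43.2), against 41.7% of all regions. These intervals overlap. A broad region held a gene's 5′ end in 39 cases (11.7%, 8.49 to 15.7) and a shorter region in 53 (3.15%, 2.36 to 4.09), against 4.56% of all. A long region has more room for a 5′ end, and the 5′ ends per Mb given above rest on 39 ends in broad and 54 in shorter regions (exact Poisson intervals). A 5′ end lay within 2500 bp in 130 broad (39.2%, 33.9 to 44.6) and 448 shorter regions (26.6%, 24.5 to 28.8). No gene lay within 5000 bp of 110 broad (33.1%, 28.1 to 38.5) and 623 shorter regions (37.0%, 34.7 to 39.3), against 36.3% of all.

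In all, 237 of the 922 genes named by any region were named by a broad one (25.7%), and 35 by 2 or more. Genes are taken as the list gives them, and a region within 5000 bp of several genes names each. A gene is said to have a region when they lie within 5000 bp of each other, whether or not they overlap. The same holds for a region at a gene. Over the transcription factor lists, 83 of 193 genes had a broad region (43.0%, 35.9 to 50.3), and of the 618 genes on no list 131 did (21.2%, 18 to 24.6). Transcription factor genes also had more regions per gene, a median of 2 against 1. Counted by pairs of a gene and a region, 26.3% of the pairs of transcription factor genes were with a broad region (109 of 415), and 15.6% of those of genes on no list (147 of 940). By region, 30.1% of the broad regions (25.2 to 35.4) and 17.4% of the shorter ones (15.7 to 19.3) named such a gene, against 19.5% of all. Among only those regions that named any gene, a view chosen after seeing the data, the shares were 45.0% (38.4 to 51.8) and 27.7% (25 to 30.5). The list counts a gene within 5000 bp of either end, so a longer region reaches further. Per Mb of region with both flanks, there were 25.4 pairs with a transcription factor gene for broad and 16.5 for shorter regions. By list, Hox genes were named by 5.72% of broad (3.48 to 8.79) and 1.78% of shorter regions (1.20 to 2.53). Genes of the other homeobox list were named by 16.3% (12.5 to 20.7) and 9.38% (8.03 to 10.9). Of all regions, 2.43% and 10.5% did. The intervals overlapped for forkhead (1.20% and 0.831%), T-box (1.20% and 1.19%) and Sox genes (0.904% and 0.356%). They also overlapped for AP-2 (0.301% and 0.415%), bHLH (1.81% and 1.36%) and zinc finger genes (2.71% and 2.20%).

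**Figure D3:**
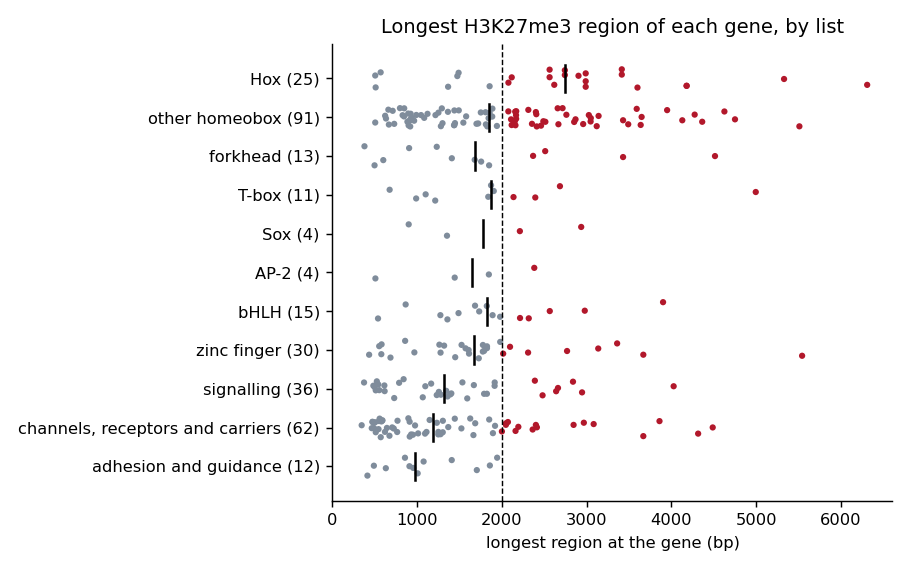
Length in bp of the longest region at each gene that a region named, by gene list, with the number of genes in brackets. Red points are genes with a broad region and grey points genes with shorter regions only, black bars are medians and the dashed line marks 2000 bp; the Hox list is the one whose median, 2743 bp, lies above it.

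Among the Hox genes, which set the identity of segments along the body, 18 of the 25 named had a broad region (72.0%, 50.6 to 87.9). Their 28 pairs of a gene and a broad region came from 19 regions. The genes are thus not independent, although the interval treats them so. Hoxa13 had 3 broad regions, together 11555 bp with 612 ChIP and 69 input tags, the most sequence in broad regions of any gene of the lists. Its regions were 5330, 3225 and 3000 bp long, with 290, 174 and 148 ChIP tags. None of them overlapped Hoxa13, and those of 5330 and 3000 bp lay 4242 and 899 bp from it. Hoxa11 had 3, together 9672 bp with 545 ChIP tags, and Hoxc11 had 2, together 8869 bp with 470. Neither region of Hoxc11 overlapped the gene, and that of 6311 bp lay 4419 bp from it. The other Hox genes with 2 broad regions were Hoxa10 (7104 bp), Hoxc10 (5669 bp), Hoxb13 (5389 bp), Hoxd3 (4695 bp) and Hoxd9 (4679 bp). One region was named for Hoxb8, Hoxb9, Hoxc9, Hoxc12, Hoxd4, Hoxd8, Hoxd10, Hoxd11, Hoxd12 and Hoxd13, and some of these share it, as Hoxd11, Hoxd12 and Hoxd13 share a region of 2989 bp with 146 and 17 tags. By the number of the paralogue, a split made after seeing the values, 16 of the 17 named genes from 8 to 13 had a broad region, the exception being Hoxc13, and 2 of the 8 named genes from 1 to 7, Hoxd3 and Hoxd4. The median of the longest region was 2989 bp in the first set and 1481.5 bp in the second. Hoxb1, Hoxb3, Hoxb4, Hoxb5, Hoxb6 and Hoxd1 had shorter regions only, the longest 1855 bp at Hoxb1.

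In the list of other homeobox genes, 41 of 91 had a broad region (45.1%, 34.6 to 55.8). This list was made by symbol and takes in every Pax gene, whether or not it has a full homeobox. The most sequence was at Vax2, a regulator of the ventral eye, with 3 broad regions of 3591, 2794 and 2498 bp, together 8883 bp with 471 ChIP and 52 input tags. Lmx1b, which patterns the dorsal limb, had 3 with 7377 bp and 373 ChIP tags, and Six3, a factor of the forebrain and eye, had 2 with 7186 bp and 354. The others with more than 1 were Onecut3 (3; 6934 bp), Barx1 (6650 bp), Tlx2 (6268 bp), Lhx1 (5929 bp), Gsx2 (5483 bp), Hmx1 (5039 bp) and Pax2 (4623 bp). At Barx1, a factor of the stomach and teeth, a region of 4275 bp held 249 and 18 tags, a ratio of 13.8, and 1 of 2375 bp held 119 and 14. A single region was found at Cdx2, a factor of the intestine and hindgut, with 5511 bp (267 and 34 tags), at Tlx1 with 4751 bp, at Emx1, a factor of the cortex, with 4626 bp and at En2 with 3950 bp. Those of Tlx1 and En2 did not overlap the gene and lay 1925 and 2926 bp from it. Further genes of this list had regions of 2076 to 3638 bp. They included Otx2, Six6, Dlx6, Irx4, Lhx2, Lhx4, Lhx5, Pax3, Pax7, Pax9, Dmbx1, Mnx1, Onecut1, Pou3f1, Pou4f3, Cdx1, Tlx3, Barhl2, Evx2, Vax1, Gbx1, Gbx2, Shox2 and Msx2. Most of them are known for the nervous system, eye, gut or face. Several had regions near the limit, among them Vax1 (2160 bp), Gbx1 (2152 bp), Shox2 (2115 bp), Pax9 (2108 bp) and Msx2 (2076 bp).

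Of the zinc finger genes, 8 of 30 had a broad region (26.7%, 12.3 to 45.9). Prdm12, which is needed for pain-sensing neurons, had 2, of 5543 and 5286 bp, with 575 ChIP tags together. They were separated by less than 1000 bp, and 91.3% of the locus lay in regions. The others were Esrra (3669 bp, shared with Kcnk4), Nr2e1 (3360 bp), Sp6 (3137 bp), Osr1 (2769 bp), Ovol1 (2309 bp), Gata6 (2096 bp) and Sall1 (2015 bp). Of the bHLH genes, 5 of 15 did (33.3%, 11.8 to 61.6): Neurog1, a factor of sensory neurons, with 2 regions and 5245 bp, Nhlh2 with 3902 bp, Hes2 with 2565 bp, Hand2 with 2317 bp and Neurog3 with 2214 bp. In the forkhead list 4 of 13 did, Foxd2 (4515 bp, 201 ChIP tags), Foxf1a (3430 bp, 177), Foxe1 (2511 bp) and Foxb1 (2368 bp). In the T-box list 4 of 11 did, Tbx4, the factor of the hindlimb, with 4996 bp and 252 and 34 tags, Tbx15 (2685 bp), Tbx21 (2394 bp) and Tbx5, the factor of the forelimb (2137 bp). Of the 4 named Sox genes, Sox14 had 2 broad regions (5325 bp) and Sox7 had 1 (2212 bp), and of the 4 AP-2 genes Tcfap2a had 1 (2382 bp). The intervals of these small lists are wide, and each includes the 25.7% of all named genes.

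Of the signalling genes, 7 of 36 had a broad region (19.4%, 8.19 to 36.0), all of them ligands. They were the Wnt genes Wnt10a (4027 bp, 234 and 38 tags), Wnt1 (2839 bp, 173 ChIP tags) and Wnt6 (2662 bp, 115), the fibroblast growth factor genes Fgf9 (2946 bp, 158), Fgf4 (2640 bp, 138) and Fgf3 (2480 bp, 126), and the Notch ligand Dll1 (2389 bp, 115). The regions at Fgf3 and Fgf4 held the 5′ end of the gene. By region, 7 broad regions (2.11%, 0.852 to 4.30) and 51 shorter ones (3.03%, 2.26 to 3.96) named a signalling gene, against 2.88% of all. Of the channels, receptors and carriers, 16 of 62 had one (25.8%, 15.5 to 38.5), with the longest at Slc16a13 (4488 bp, shared with Bcl6b), Slc30a3, a zinc carrier of synaptic vesicles (4316 bp), and Slc5a1, the intestinal glucose carrier (3860 bp). Others were Kcnk4, Slc25a23, Slc17a7, Kcna1, Slc6a7, Cacna2d2, Grin2c, Adra2b, Adra2c, Adrb1 and the neighbours Slc47a1 and Slc47a2, which share a region. By region the share was 4.52% in broad and 4.57% in shorter regions, against 4.56% of all, so this list did not set the broad regions apart. Of the 12 adhesion and guidance genes, 0 had a broad region (0%, 0 to 26.5, an interval that includes the 25.7% of all named genes). The 26 regions that named one were all shorter (1.29% of all regions), and 10 of them were at Cdh22. Bai1, the adhesion receptor with a broad region named above, is not covered by the symbol patterns of this list. A count of 0 of 332 broad regions allows a share of up to 1.10% at the upper bound of its interval. The longest region of this list was 1944 bp at Cdh22, a cadherin with 10 regions and 12660 bp in all, and none of those 10 was broad. In the same loci 2 broad regions of 2119 and 2177 bp lay more than 5000 bp from Cdh22 and named no gene, the latter being the region on chromosome 2 with a ratio of 21.0. The cell cycle inhibitor Cdkn2a had 3 regions, the longest 1606 bp.

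Among genes outside these lists, some are known as transcription factors or DNA-binding proteins, for example Arid3c (6534 bp), Bcl6b (4488 bp), Prox1 (5325 bp, 241 and 34 tags), Gfi1 (3463 bp), Mafa (3301 bp), Cux2 (2538 bp), Otp (2365 bp), Gsc2 (2269 bp), Hlx (2121 bp) and Dbx1 (2000 bp). They were picked out after their values were seen. The symbol patterns of the lists do not cover every transcription factor or homeobox gene, and those left out count among the 618 genes on no list. The genes with 2 or more broad regions outside the lists were Raet1a (3 regions, 16213 bp), Raet1b and Raet1c (2 shared regions, 8414 bp), LOC547349 (10323 bp), Nav2 (6037 bp), Otop2 (6354 bp), Lbxcor1 (5880 bp), Ppp2r2c (5265 bp), Skap1 (4892 bp), Mir9-3 (4823 bp) and the antisense or opposite-strand genes Hoxa11as (8717 bp in 3 regions), Dlx6os1 (6617 bp), Vax2os1 and Vax2os2 (6089 bp). Strand is not recorded in the list, and the regions of these last genes are shared in part with Hoxa11, Hoxa13 and Vax2.

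Of 25 genes known from cartilage, among them the collagen, aggrecan and Sox9 genes, 0 were named by a broad region and 1, Ihh, by a shorter one, older symbols included. Of all protein-coding genes of RefSeq, 0.968% were named by a broad and 3.90% by any region, so these counts are near what is found over all genes. The list does not measure expression, and the label of the cells cannot be checked from it. Ihh codes for a signal made by prehypertrophic chondrocytes, and its region lay in the same locus as the broad regions of Wnt6 and Wnt10a.

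Broad regions lay close to other regions. The gap to the nearest other region had a median of 2070 bp, against 6447 bp for shorter regions, and it was at most 1000 bp in 117 broad (35.2%) and 365 shorter regions (21.7%), and at most 3000 bp in 193 (58.1%) and 635 (37.7%). Over all regions these shares were 23.9% and 41.1%. Gaps run from edge to edge, so at the same spacing of centres a longer region has a smaller gap. No allowance was made for length. When regions no more than 50000 bp apart were joined into loci, there were 909 loci in all, of which 218 held a broad region and 51 held 2 or more, with 165 of the broad regions between them. Only 46 broad regions (13.9%) were alone in their locus, against 474 shorter ones (28.1%) and 25.8% of all. By chromosome, the share of broad regions ran from 9.38% on chromosome 8 to 24.6% on chromosome 3, and 0 of the 2 regions on the X chromosome were broad. A stretch that the caller broke at a gap would give several regions of a smaller length, and with gaps of at most 1000 bp closed, 405 stretches reached 2000 bp.

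The 10 loci with 5 or more broad regions held 72 of them. The 4 Hox clusters were among these, with 11 broad of 30 regions at the locus of the Hoxb cluster, which extended to Skap1 (27515 bp in broad regions, 1426 and 157 tags), 7 of 18 at Hoxa (23483 bp, 1270 and 151), 7 of 19 at Hoxd (17457 bp, 895 and 102) and 6 of 23 at Hoxc (20473 bp, 1144 and 93). The Hoxb locus spanned 378441 bp, and 5 of its 11 broad regions named no gene. Its Hox genes with a broad region were Hoxb8, Hoxb9 and Hoxb13, and other broad regions there named Skap1 or Ttll6. The ratio at Hoxc was 12.3 (9.95 to 15.4), and those of the other clusters were 9.08 (7.70 to 10.8), 8.41 (7.10 to 10.0) and 8.77 (7.14 to 10.9). The interval at Hoxc overlapped that of each other cluster, at Hoxa by a small margin. The other loci were the Cwc22 stretch (10 of 14; ratio 2.61, 2.45 to 2.77), a locus of Mir9-3 and Rhcg on chromosome 7 (7 of 17), 1 of Dmbx1 and Faah on chromosome 4 (6 of 14), 1 of Pax2 on chromosome 19 (6 of 29), and 2 whose broad regions named no gene. One of these lay on chromosome 9 from 60796175 to 61073430 (mm9), with 7 broad of 32 regions, 929 and 119 tags and a ratio of 7.81 (6.44 to 9.53), and no region in it named a gene. The other was on chromosome 3 from 96086855 to 96335211, with 5 of 20 regions and the longest region of all, and shorter regions there named Fcgr1 and Hfe2. Of the 110 broad regions without a gene within 5000 bp, 76 lay in a locus where another region named one.

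**Figure D4:**
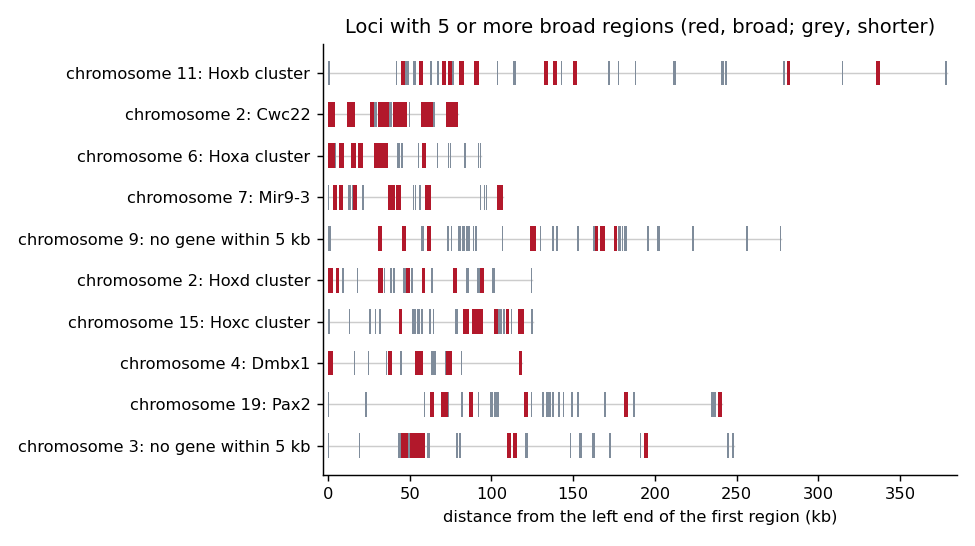
The 10 loci with 5 or more broad regions, drawn to scale as distance in kb from the left end of the first region of each. Red boxes are broad regions and grey boxes shorter ones; the 7 broad regions of the Hoxa cluster sit mostly at its left end, while the 11 of the Hoxb locus are spread over the stretch.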

How the data were processed

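H3K27me3 ChIP and input libraries of pooled rib chondrocytes were sequenced once each, and 1 region list was analysed. Reads were aligned by the authors to mm9, and QuEST was used to call regions over input, whose settings are not given in the sources used here. The deposited counts are whole numbers of ChIP and input tags per region, not scaled for depth, and library totals are unknown. The deposited tag enrichment is a ratio of ChIP to input tags, where a floor of 9.21 input tags per kb, as found from the values, applied in 1552 regions. For each region, the deposited list also has the top of the smoothed ChIP signal and a q-value on the −log10 scale. Genes within 5000 bp were taken as listed, with unsigned distances, and whether positions count from 0 or 1 is not stated.

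The 2268 rows were reduced to 2017 regions. Members and gene lists were chosen with earlier results of these data known. Lists were made by symbol, and antisense and look-alike symbols were set aside. Named were the genes of the 10 longest regions, of the 10 with most ChIP tags and of the 10 highest and 10 lowest ratios, genes with 2 or more broad regions, list genes with a broad region and the regions at the limit. A few list genes that enter the counts are not reported here by name. No test between groups was made, since there is 1 library; intervals are 95% Clopper-Pearson. Counting was tested on simulated regions. RefSeq symbols matched 232 of 237 genes. Alternatives were other length limits, q-value limits, merging, gene assignment and input limits. The work was done in Python 3.11.15 (scipy 1.17.1, pandas 2.3.3, matplotlib 3.10.9, numpy 2.4.6).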

Additional observations from a re-analysis of the deposited data

How the results depend on the processing

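The number of broad regions was 616 with a limit of 1500 bp and 104 with 3000 bp, and stayed within 1.5 times 332 under the other settings (317 to 453). The limits of 0.05 and 0.01 on the q-value and a length of right minus left plus 1 left out no region. Genes named by broad regions were 390 with 1500 bp, 90 with 3000 bp, 154 with only overlapped genes and 139 with a 5′ end within 2500 bp, against 237. The shares at genes were 66.9% (broad) and 63.0% (shorter) for any gene within 5000 bp, and 39.2% and 26.6% for a 5′ end within 2500 bp. The transcription factor shares were 15.4% and 8.78% with only overlapped genes, 16.0% and 6.47% with a 5′ end within 2500 bp, 24.4% for broad regions without Hox genes (15.7% for shorter), and 45.0% and 27.7% over only regions that name a gene. The ratio was 6.97 and 8.16 with 1500 bp, 5.76 for broad regions with 3000 bp, 7.96 and 8.19 with input below 2 times the floor, and 7.98 for broad regions without the high-input loci. Broad regions kept the higher share in each, and the lower ratio, by 8.10 to 7.98 in the last. Of 70 recomputed sums of bp at genes with 2 or more broad regions, 27 moved, and 12 of these 35 genes had no region of 3000 bp.

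No paired analysis was possible because there is 1 library of each kind and no test. Leaving out a replicate was likewise not possible. Regions by their midpoint and the sequence of the regions were not run, since gene positions and an mm9 genome were not used here. The lowest ChIP height listed was 8, so weaker signal was not detectable.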
